A study of Mus musculus with 3 samples.

Results

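Vascular smooth muscle nuclei of mouse interscapular brown adipose tissue (BAT) were selected by the UMIs of 5 genes of the contractile program. A UMI, or unique molecular identifier, marks 1 captured RNA molecule. The smooth muscle score S was the sum of Myh11, Acta2, Tagln, Lmod1 and Myocd, the endothelial score E the sum of Pecam1, Flt1, Kdr, Ptprb, Cyyr1 and Adgrl4, and the adipocyte score A the sum of Adipoq, Plin1, Pparg, Cidea and Ppara. A nucleus was taken when S was at least 3 and at least 2 times E and 2 times A, among barcodes in which 200 or more genes were detected and mitochondrial UMIs made up no more than 50%. This gave 273 nuclei of 36281, with 52 of 11792 in the untreated library, 198 of 14027 in the sham library and 23 of 10462 in the denervated library. They were compared with 2788 pericyte nuclei, which had at least 3 UMIs of Pdgfrb, Notch3, Abcc9 and Kcnq5 together (score P) and an S of 0.

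All mice were wild type and of strain C57Bl6 by the labels. The untreated library came from 20 mice 8 weeks of age and the denervated library from 20 mice of that age, 3 days after unilateral cutting of the intercostal nerves to BAT, as the study's methods give it. The study used male mice throughout, and it names tamoxifen for the denervated mice of this experiment and not for the untreated ones, so tamoxifen and denervation cannot be told apart. The sham library is labelled as sham-operated BAT of adult mice, and its day, age, number of mice and any tamoxifen are not given in the sources used here. The untreated and denervated libraries pooled their animals, and each condition is 1 sample. Nuclei came from the floating layer of digested BAT, which carries brown adipocytes and fragments of vessels, and were sorted on a DNA dye, with doublets gated out by scatter, before capture. Vessels that sank are therefore not represented. Counts were deposited per gene and nucleus, without normalization, and levels below are a gene's UMIs per 1000000 UMIs of a class of nuclei (CPM). The libraries held 9420030 to 14971579 UMIs and pairs of them shared 251 to 278 barcodes, and no smooth muscle nucleus had a barcode that was a member in another library. The members held 55920, 148657 and 15693 UMIs in the untreated, sham and denervated libraries.

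Smooth muscle cells wrap arteries, arterioles and larger veins and set vessel width by contraction, in which calcium entry and release activate myosin light chain kinase. Pericytes lie on capillaries, share a mesenchymal origin with smooth muscle cells and also express contractile genes at a lower level. In BAT, sympathetic nerves release noradrenaline, ATP and neuropeptide Y onto arteries, and blood flow rises when the tissue makes heat.

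The score genes chose the nuclei, so their levels are a description without a test. Myh11, the smooth muscle myosin heavy chain at chr16:14194535-14291372 of GRCm38, was at 2736, 3774 and 2931 CPM in the untreated, sham and denervated members and had a UMI in 233 of 273 nuclei. Acta2, smooth muscle actin, was at 1949, 2092 and 3696 CPM, with a UMI in 183 nuclei. Tagln, an actin-binding protein, had a UMI in 134 nuclei, Lmod1, which seeds actin filaments, in 100 and Myocd, the coactivator of serum response factor that drives this program, in 96. UMIs of at least 2 of the 5 genes were found in 250 of the 273 nuclei. The median S was 6 in untreated and 5 in both other libraries. Just inside the threshold, 56 members had an S of 3, with a mean P of 4.14, and just outside it, 111 nuclei that passed both limits had an S of 2, with a mean P of 4.33. Of all 359 nuclei with an S of at least 3, 86 were refused by the limits on E and A.

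The members carried pericyte genes as well. A P of at least 3 was found in 183 of the 273 members, and the mean P was 5.83, 3.84 and 3.04 in the untreated, sham and denervated libraries. Notch3, a Notch receptor of mural cells, was at 3451, 3242 and 2995 CPM in the members and at 2476, 2038 and 2512 CPM in pericytes. Abcc9, the sulfonylurea receptor subunit of the vascular ATP-sensitive potassium channel, was at 143, 215 and 255 CPM in the members against 1999, 1897 and 1751 CPM in pericytes. These genes defined the pericytes, so their levels are a description. The 12 pericyte markers outside the score summed to 11391, 7568 and 7583 CPM in the members and to 11748, 10957 and 7804 CPM in pericytes. In the members that is more than the sums of the smooth muscle markers given below. Of the 637, 1125 and 119 UMIs of this list in the untreated, sham and denervated members, Rgs5 held 332, 357 and 56. Neither Rgs5 nor Ebf1 of the list passed the main test against pericytes below. Notch3 was likewise the larger part of P, whose genes summed to 5418, 5112 and 4461 CPM in the members.

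**Figure D1:**
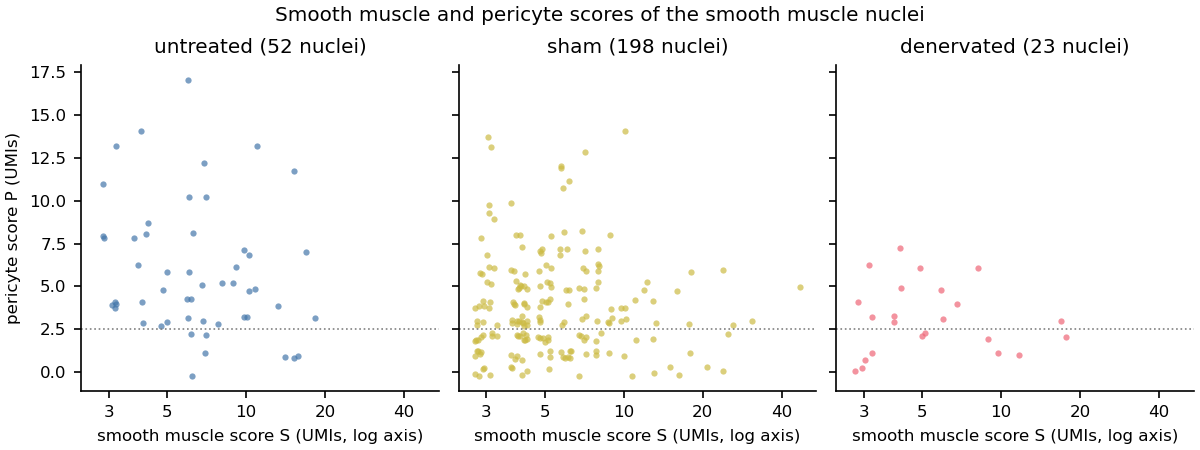
Scores of each smooth muscle nucleus, by library: S, the UMIs of 5 smooth muscle genes, on a log x axis and P, the UMIs of 4 pericyte genes, on the y axis, with points shifted at random by up to 0.3 to part ties. Nuclei above the dotted line had a P of at least 3, which was 45 of 52 untreated, 125 of 198 sham and 13 of 23 denervated nuclei.

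The smooth muscle label was checked on 15 marker genes outside the score. Summed over the list they were at 6688, 6431 and 6818 CPM in the members and at 1335, 1101 and 1157 CPM in pericytes. Of the 10 markers with enough UMIs to test, 9 were higher in the members than in pericytes (2.19% of all tested genes were), or 8 with limits on E and A for pericytes, and Smtn was not (log2 fold change -0.08, adjusted p = 0.982). The other 5 had too few UMIs to test. Cnn1, a marker of contractile smooth muscle, had 6 UMIs in all members together, Kcnmb1 had 2 and Actg2, an actin of visceral smooth muscle, had 1, so these 3 markers were at or near 0. Pln and Map3k7cl were the remaining untested markers. Markers of other cells were measured beside them. The 14 endothelial markers were at 2468 to 3464 CPM in the members and 2817 to 6562 CPM in pericytes, the 12 adipocyte markers at 2718 to 6245 CPM and 3276 to 8437 CPM, and the 10 Schwann cell markers at 249 to 382 CPM and 176 to 455 CPM. The 10 fibroblast markers were at 834 to 1529 CPM in the members and 491 to 622 CPM in pericytes, with Pdgfra at 0 in the members and Dcn at 1 UMI. Gsn of this list was higher in the members, at 912, 511 and 319 CPM against 176, 238 and 135 CPM (log2 fold change 1.48 ± 0.39, adjusted p = 0.00498), also with the limits on pericytes. The 10 immune markers reached at most 40.4 CPM and the 10 skeletal muscle markers at most 35.8 CPM in the members, and both lists had no UMI in the denervated members. Of 12 endothelial markers tested, Emcn, Shank3, Mecom, Eng and Tie1 were lower in the members (2.32% of all tested genes were), and 2 of the list were with the limits on pericytes. Acaca of the adipocyte and Neb of the skeletal muscle list were lower as well, of which Acaca was not called with the limits (adjusted p = 0.21). With the limits, 1 adipocyte marker was higher in the members. In untreated, sham and denervated pericytes within the limits the adipocyte list was at 3770, 2098 and 4564 CPM, against 5597, 2718 and 6245 CPM in the members. The endothelial list was at 2392, 4474.5 and 2542 CPM there, against 2468, 3464 and 3059 CPM in the members. The genes of the E score were at 1010, 2168 and 630 CPM in untreated, sham and denervated pericytes and at 386, 505 and 309 CPM in those within the limits. The part of these RNAs in the comparisons below was otherwise not tested.

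The members were 0.441% (0.330 to 0.578, exact binomial interval) of untreated, 1.41% (1.22 to 1.62) of sham and 0.220% (0.139 to 0.330) of denervated nuclei. Members per 100 pericytes were 9.03 in untreated, 11.5 in sham and 4.65 in denervated BAT. The denervated nuclei were shallower, with a median of 674 UMIs for members and 439 for pericytes against 1029.5 and 829 in untreated BAT, and the rule counts UMIs. In sham BAT, with the highest share, the medians were 712.5 for members and 890 for pericytes. After each nucleus was thinned to 500 UMIs and shallower nuclei were left out (2101 untreated, 3361 sham and 3274 denervated), the ratios were 8.84, 11.6 and 11.3 per 100, on 38, 130 and 14 members. The share of members among the nuclei kept was 0.392%, 1.22% and 0.195%, with denervated BAT again the lowest. Both steps were applied together and only 15 of the 23 denervated members were deep enough, so the parts of thinning and of leaving out shallow nuclei in the changed ratio were not tested.

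UMIs were summed per library and class and the 2 classes were compared over the 3 libraries with edgeR's quasi-likelihood test, with the library as a term and Benjamini-Hochberg adjustment over 9946 genes. The 3 libraries were of different conditions and stood in as the replicates. Of the tested genes, 218 were higher in smooth muscle nuclei (2.19% of all) and 231 were lower (2.32%) at an adjusted p below 0.05. The same direction was found in all 3 libraries for 188 of the higher and 224 of the lower genes. These libraries also gave the calls, so this is a description and no separate support. The share of all 9946 tested genes with the same direction was not counted. A level of 0 UMIs in the members was taken as lower, and 21 of the 231 lower genes had 0 UMIs in the members of all 3 libraries. When pericytes had to pass limits on E and A as the members do, 198 of the higher and 180 of the lower genes were called again. The same nuclei were chosen and tested, and the 2 classes differed in S by construction. Without the untreated library 79 genes were higher and 22 lower, without the sham library 98 and 77, and without the denervated library 339 and 323. Among members with a P of at most 2 the calls fell to 39 higher and 23 lower.

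Among the genes called under both pericyte definitions and with 1 direction in all libraries, the highest in smooth muscle nuclei were Rbm24, P2rx1, Cacna1h, Rgs7bp, Pdlim3, Olfr78, Grip2, Pcp4l1, Mustn1, Nrip2, Cdh6 and Nexn, with log2 fold changes of 5.40 to 7.28. They hold an RNA-binding protein of muscle splicing (Rbm24), an ATP-gated cation channel (P2rx1), a T-type calcium channel (Cacna1h), a membrane anchor of RGS proteins (Rgs7bp), proteins of actin anchorage (Pdlim3 and Nexn), a cadherin (Cdh6) and an olfactory receptor found in vessels (Olfr78). Olfr78, at chr7:102738511-102759471, was at 519, 740 and 382 CPM in the untreated, sham and denervated members and at 7.17, 9.12 and 7.28 CPM in pericytes. It had a UMI in 33.0% of members (27.4 to 38.9, exact binomial interval) and in 0.717% of pericytes (0.439 to 1.11), and its levels were 0.534 CPM in endothelial and 0.270 CPM in adipocyte nuclei. Every library of members lay above every library of pericytes, and the log2 fold change was 6.10 ± 0.52 (SE, 3 libraries, adjusted p = 4.73e-28).

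Rbm24, at chr13:46418434-46431095, was at 179, 168 and 255 CPM in the members and at 1.79, 0 and 3.64 CPM in pericytes, with a log2 fold change of 7.28 ± 0.77 (adjusted p = 3.08e-18). It had 10, 25 and 4 UMIs in the untreated, sham and denervated members and 1, 0 and 1 in pericytes. A gene was tested with at least 30 UMIs over both classes, which Rbm24 reached only through the members. Nrip2, a nuclear receptor interacting protein, was at 680, 599 and 446 CPM against 8.96, 21.7 and 0 CPM. Cdh6 was at 411, 511 and 255 CPM against 12.5, 8.55 and 7.28 CPM. The 2 classes did not overlap for any of these genes. As for Olfr78 above, that is a description, since the genes were picked for large changes of 1 sign. The share of all tested genes without overlap was not counted. Mustn1, expressed in muscle and bone, was at 358, 350 and 1020 CPM against 3.58, 10.3 and 14.6 CPM, with the denervated members above both others. All 12 genes were called under each of the 10 to 16 alternative settings in which they could be tested, and the largest adjusted p among these was 0.0014, for Cacna1h. These settings include the limits on pericytes, by which the genes were picked. Apart from Nrip2, these 12 genes reached the minimum of 30 UMIs only through the members. The 12 lowest genes below, with 0 UMIs in the members, reached it only through pericytes. Without a low-count filter all 24 were called again.

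**Figure D2:**
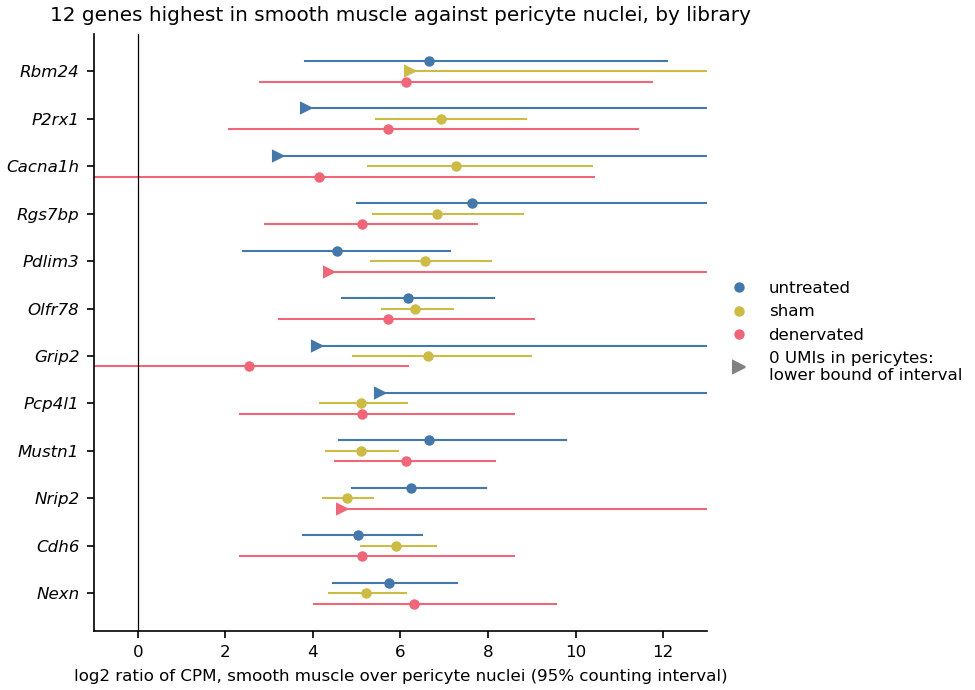
Ratio of CPM in smooth muscle over pericyte nuclei on the log2 scale for the 12 highest genes by those criteria, 1 point per library with its exact 95% counting interval. A triangle marks the lower bound where pericytes had 0 UMIs. Every point and triangle lies above 0, and the denervated intervals of Cacna1h and Grip2, which rest on 1 UMI each in the members, reach below it.

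The 12 lowest genes by the same criteria were Elmod1, Galr1, Aff2, Vdr, Cadm1, Secisbp2, Lama2, Mdga2, D630045J12Rik, Cfap69, Rit2 and Lypd1. All 12 had 0 UMIs in the members of all 3 libraries, so only a bound can be given, against 3 counts in the 220270 UMIs of all members. Elmod1 was at 172, 178.5 and 167 CPM in the pericytes of untreated, sham and denervated BAT and was at least 12.9-fold lower in smooth muscle nuclei (adjusted p = 5.27e-08). Galr1, a galanin receptor, was at 165, 95.8 and 186 CPM in pericytes and at least 8.83-fold lower (adjusted p = 2.18e-06). Vdr, the vitamin D receptor, was at 127, 72.4 and 127 CPM in pericytes and at least 6.61-fold lower (adjusted p = 5.44e-05). The counting intervals left out 0 for these 3 genes in the untreated and sham libraries. In the denervated library they did so for none of the 12 genes, and in the untreated library not for Lama2, Cfap69, Rit2 and Lypd1. By the exact Poisson interval, 0 UMIs in the denervated members allow up to 235 CPM. Lama2, the laminin alpha chain of muscle basement membranes, was at least 5.37-fold lower (adjusted p = 0.00105). The calls of these 12 genes were less stable than those of the highest 12, with 8 to 15 of 13 to 16 alternative settings that called each, and a largest adjusted p of 0.68 for Rit2. Here too the settings include the limits on pericytes, by which the genes were picked. In all, 21 of the 231 lower genes had no UMI in any member.

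Of 30 genes of the contractile apparatus and its anchors, 28 could be tested and 14 were higher in smooth muscle nuclei (2.19% of all genes were higher), with a median log2 fold change of 1.41 against -0.23 over all tested genes. Mylk, the kinase that activates myosin, was at 3201, 2718 and 3250 CPM in the members and at 813, 657 and 644 CPM in pericytes (log2 fold change 1.89 ± 0.36, adjusted p = 1.48e-05). Myl9, the regulatory light chain it phosphorylates, was at 1341, 1110 and 1402 CPM against 193, 176 and 171 CPM (2.61 ± 0.38, adjusted p = 6.4e-10). For both genes the members of each library lay above the pericytes of all 3, which is again a description, as the share of all tested genes without overlap was not counted. Tpm1, a tropomyosin, was at 1681, 1460 and 1338 CPM against 136, 131 and 171 CPM (3.20 ± 0.39, adjusted p = 6.71e-14), and Flna, an actin crosslinker, at 1985, 2099 and 2740 CPM against 294, 307 and 357 CPM. Larger changes were found for the Z-disc and anchor proteins Pdlim3 (6.13 ± 0.59) and Ldb3 (5.13 ± 0.52), and for Actn1 (3.41 ± 0.44), an actinin, and Synm (3.36 ± 0.61), an intermediate filament protein. Synpo2, Tpm2, Csrp1, Ppp1r12b, Des and Myl6 were also higher, by 1.36 to 3.18 on the log2 scale. Des was not called with the limits on pericytes (adjusted p = 0.07) and had no UMI in the denervated members.

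Other contractile genes did not pass the test. Ppp1r12a, the myosin phosphatase targeting subunit, had a log2 fold change of 1.07 ± 0.36 (adjusted p = 0.059), and Cald1, caldesmon, of 0.75 ± 0.36 (adjusted p = 0.305). Tns1, a tensin of focal adhesions, was at 1538, 1096 and 1338 CPM in the members and at 1188, 1136 and 1198 CPM in pericytes (-0.04 ± 0.36, adjusted p = 0.986). Its levels overlapped between the classes, and it was at 997 CPM in endothelial and 1107 CPM in adipocyte nuclei.

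Serum response factor binds the CArG box, a 10-base element in the promoters of many smooth muscle genes. The 250 bases before transcript starts of RefSeq (GRCm38.p6) were searched for it, in 32851 windows of 27025 genes, some with more than 1 window and some with a start inside the gene. The pattern searched was 10 bases of CC and GG with only A or T between them. It covers both strands at once, since its reverse complement is the same pattern. Boxes with a G or C in the middle were not searched for. Of 163 higher genes with a promoter sequence, 9 held a CArG box (5.52%), as did 4 of 174 lower genes (2.30%), 114 of 7842 tested genes (1.45%) and 482 of 32851 promoter windows (1.47%). The 9 were Cnn2, Dmd, Filip1l, Ldb3, Lmcd1, Myl6, Myl9, Myo1e and Ripor2. Of 27 contractile genes with a promoter sequence, 4 held one (14.8%), namely Ldb3, Myl6, Myl9 and Vcl. The promoters of Myh11, Tagln and Myocd were not searched. Of the score genes, Acta2 and Lmod1 had a promoter sequence, without an exact match to this pattern in the window. Whether they hold a box that departs from the pattern was not tested. A match says only that these letters stand there. The stretches around the box of 3 genes are shown with the box in capitals, from windows that overlap no annotated exon: Myl9 at chr2:156775243-156775372 and Dmd at chrX:82948712-82948841, both on the plus strand, and Filip1l at chr16:57549120-57549241 on the plus strand, before a start inside the gene (57353093 to 57573126).
Myl9: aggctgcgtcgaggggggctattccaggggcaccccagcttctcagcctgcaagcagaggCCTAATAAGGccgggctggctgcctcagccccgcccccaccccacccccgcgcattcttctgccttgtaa
Dmd: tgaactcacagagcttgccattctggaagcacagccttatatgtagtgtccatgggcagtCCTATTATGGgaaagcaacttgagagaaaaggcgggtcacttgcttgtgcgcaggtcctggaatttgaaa
Filip1l: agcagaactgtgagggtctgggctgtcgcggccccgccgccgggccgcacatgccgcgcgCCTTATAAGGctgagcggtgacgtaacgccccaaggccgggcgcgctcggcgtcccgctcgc

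Dmd, dystrophin, which ties actin to the membrane, was at 1663, 1635 and 1848 CPM in the members and at 339, 326 and 306 CPM in pericytes (log2 fold change 2.19 ± 0.37, adjusted p = 2.94e-07). Filip1l, a filamin-interacting protein, was at 215, 478 and 510 CPM against 48.4, 101 and 40.04 CPM (2.36 ± 0.42, adjusted p = 2.5e-06). Both were higher in the members of every library.

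Calcium handling genes were split. Of 27 tested, 8 were higher and 1 was lower (2.19% and 2.32% of all genes), or 7 and 2 with the limits on pericytes, with a median log2 fold change of 0.62. Cacna1h, the T-type channel that opens at low voltage, was at 89.4, 175 and 63.7 CPM in the members and at 0, 1.14 and 3.64 CPM in pericytes (6.63 ± 0.77, adjusted p = 7.53e-15). Atp2a3, a calcium pump of the sarcoplasmic reticulum, was at 483, 518 and 382 CPM against 14.3, 27.4 and 21.8 CPM (4.34 ± 0.45, adjusted p = 9.81e-19), and Atp2b4, a calcium pump of the cell membrane, at 876, 841 and 1083 CPM against 77.0, 135 and 61.9 CPM (3.12 ± 0.39, adjusted p = 4.12e-13). These 3 genes did not overlap between the classes, again a description of genes picked for the size of their change. Cacnb2, Casq2, Atp2a2, Cacna2d1 and Trpc4 were also higher, by 1.25 to 2.27, of which Cacna2d1 was not called with the limits on pericytes (adjusted p = 0.12). In contrast, Cacna1c, the L-type channel of vascular muscle, was at 1162, 1507 and 1274 CPM in the members and 1159, 1007 and 1256 CPM in pericytes (0.02 ± 0.36, adjusted p = 0.992), and Ano1, a calcium-activated chloride channel, had a log2 fold change of -0.14 ± 0.37 (adjusted p = 0.94).

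Of 11 potassium channel genes tested, 3 were higher and 2 lower (2.19% and 2.32% of all genes). Kcnj8, the pore of the vascular ATP-sensitive potassium channel and partner of Abcc9, was at 0, 74.0 and 0 CPM in the members and at 604, 475 and 182 CPM in pericytes (-3.50 ± 0.55, adjusted p = 2.85e-08). The untreated and sham levels lay below those of pericytes, while the 0 UMIs of the denervated members allow up to 235 CPM by the exact Poisson interval. Kcnq1 was at 0, 26.9 and 0 CPM against 235, 75.8 and 269 CPM (-2.98 ± 0.68, adjusted p = 0.000591). The voltage-gated channel Kcna5 (2.36 ± 0.65) and the leak channel Kcnk3 (2.17 ± 0.37) were among the higher genes. Kcnk3 was at 1126 CPM in the members and at 944 CPM in adipocyte nuclei, so the members stood little above adipocytes. On the pericyte marker list as a whole, 2 of 11 tested genes were lower (2.32% of all genes), Kcnj8 among them, and 4 with the limits on pericytes. Rgs5, a marker shared by mural cells, had a log2 fold change of -0.18 ± 0.37 (adjusted p = 0.916).

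The receptors for the 3 sympathetic transmitters were read as 1 list, of which 10 of 19 genes had enough UMIs. P2rx1 and Npy1r were higher (2.19% of all genes), with a median log2 fold change of 0.04. P2rx1, at chr11:72999103-73015200, opens on ATP and was at 125, 276 and 191 CPM in the members and at 0, 2.28 and 3.64 CPM in pericytes (6.70 ± 0.68, adjusted p = 6.91e-20). It had a UMI in 38 of 273 members and 3 of 2788 pericytes. Npy1r, at chr8:66697192-66706792, the Y1 receptor for neuropeptide Y, was at 17.9, 168 and 382 CPM against 1.79, 19.4 and 0 CPM (3.67 ± 0.63, adjusted p = 8.06e-07). Its untreated level of 1 UMI lay within the pericyte range, and the members of sham and denervated BAT lay above it. Both genes were below 2 CPM in endothelial and adipocyte nuclei. The adrenergic receptors Adra1a and Adrb1 did not pass the test. Adra1a was at 17.9, 108 and 127 CPM in the members, 57.3, 38.8 and 157 CPM in pericytes (0.39 ± 0.52, adjusted p = 0.839) and 464 CPM in adipocyte nuclei. With the limits on pericytes, which lowered the A genes from 1559, 1575 and 2559 CPM to 978, 919 and 1022 CPM, its adjusted p was 0.0037 and the gene was higher in the members. Adrb1 was at 161, 40.4 and 0 CPM in the members (adjusted p = 0.714), and Adra1b and Adra2a, with 8 UMIs each, had too few to test.

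**Figure D3:**
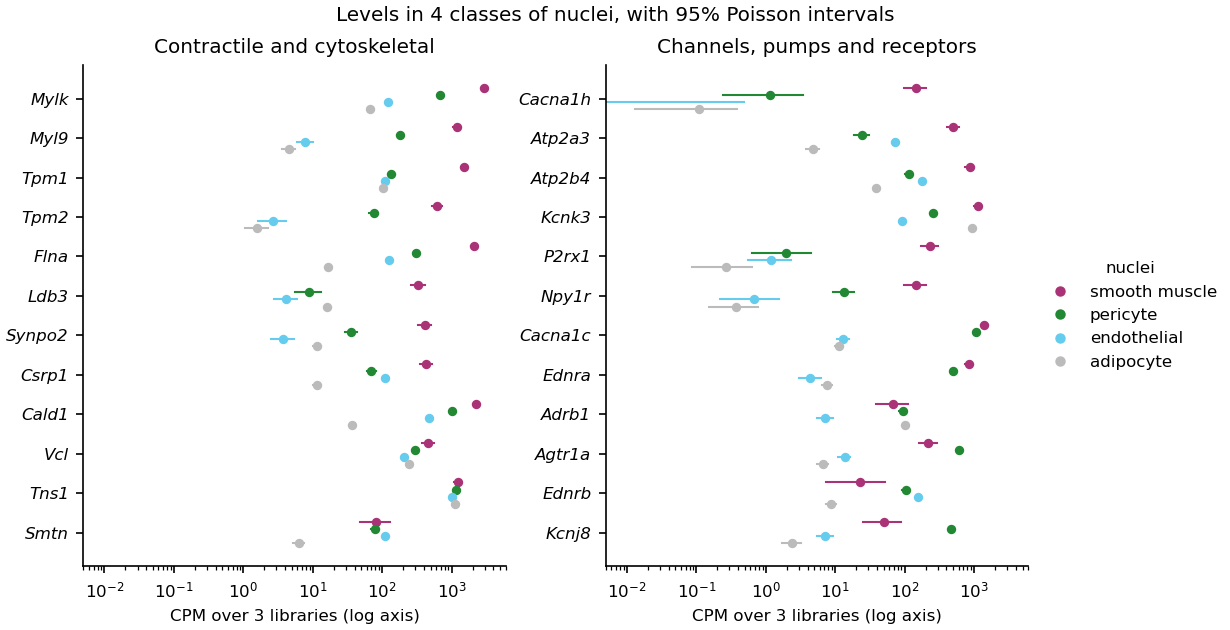
Levels of 12 contractile genes (left) and 12 channels, pumps and receptors (right) over the 3 libraries in 4 classes of nuclei, in CPM on a log x axis with exact 95% Poisson intervals. A line without a point marks 0 UMIs and starts at the axis limit. P2rx1, Npy1r and Cacna1h were high in smooth muscle nuclei, at 232, 145 and 145 CPM over all libraries, and Kcnj8 and Agtr1a in pericytes, at 472 and 598 CPM.

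Receptors for other vasoactive signals and their regulators gave 1 higher and 4 lower genes of 22 tested (2.32% of all genes were lower), with a median log2 fold change of -1.16. Agtr1a, the main angiotensin II receptor, was at 179, 222 and 319 CPM in the members and at 892, 500 and 626 CPM in pericytes (-1.65 ± 0.41, adjusted p = 0.0025). Ednrb, an endothelin receptor, was at 0, 33.6 and 0 CPM against 73.4, 116 and 80.1 CPM (-2.28 ± 0.71, adjusted p = 0.0317), while Ednra, the endothelin receptor of vascular muscle, was at 554, 935 and 1020 CPM against 421, 505 and 593 CPM (0.50 ± 0.37, adjusted p = 0.626). The natriuretic peptide clearance receptor Npr3 (-2.40 ± 0.69) and the G protein regulator Rgs3 (-1.88 ± 0.56) were also lower. The prostaglandin E receptor Ptger3 was higher (1.60 ± 0.45, adjusted p = 0.0113), with 168 CPM in the members, 46.4 in pericytes and 356 in adipocyte nuclei.

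Of 25 genes of cyclic nucleotide signalling tested, 2 were higher and 3 lower (2.19% and 2.32% of all genes), or 1 and 4 with the limits on pericytes. The 3 lower genes were phosphodiesterases. Pde4d, which breaks down cAMP, was at 179, 202 and 63.7 CPM in the members and 1360, 1114 and 1696 CPM in pericytes (-3.03 ± 0.43, adjusted p = 3.88e-10) and was called under each of 16 alternatives. Pde7b (-3.16 ± 0.67) and Pde10a (-1.62 ± 0.43) fell in the same direction. Pde4d and Pde7b were at 1082 and 305 CPM in adipocyte nuclei and 122 and 53.8 CPM in endothelial nuclei. The cyclase gene Adcy5 was higher, at 143, 141 and 127 CPM against 5.37, 13.7 and 18.2 CPM (3.46 ± 0.60, adjusted p = 8.25e-07). Prkar1a was higher by 1.14 ± 0.37 (adjusted p = 0.0428), and not with the limits on pericytes (adjusted p = 0.058). Prkg1, the kinase that nitric oxide activates through cGMP, had a log2 fold change of -0.72 ± 0.37 (adjusted p = 0.35).

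Among 29 transcription regulators of mural cells tested, 3 were higher and 2 lower (2.19% and 2.32% of all genes), or 4 and 3 with the limits on pericytes. Meis2 (1.44 ± 0.39), Mef2c (1.16 ± 0.37) and Zfpm2 (1.82 ± 0.53) were higher and Nr2f1 (-1.87 ± 0.46) and Ebf2 (-1.22 ± 0.37) were lower. Nr2f1 was at 53.6, 135 and 127 CPM in the members and 494, 304 and 339 CPM in pericytes (adjusted p = 0.0021). Ebf1, of the same family as Ebf2, was at 3069 CPM in the members and 2963 CPM in pericytes (-0.31 ± 0.37, adjusted p = 0.803). Of 13 Notch pathway genes tested, Nrarp, a feedback gene of the pathway, was higher (2.01 ± 0.50, adjusted p = 0.00255), and the coactivators Maml2 (-1.42 ± 0.40) and Maml3 (-1.24 ± 0.39) were lower (2.19% and 2.32% of all genes).

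Matrix genes were divided, with 7 of 35 tested higher and 4 lower (2.19% and 2.32% of all genes) and a median log2 fold change of -0.69. With the limits on pericytes 7 were higher and 8 lower. Among laminin chains, Lama5 was at 340, 262 and 191 CPM in the members and 19.7, 37.1 and 32.8 CPM in pericytes (3.07 ± 0.45, adjusted p = 2.11e-09), whereas Lamc3 was at 53.6, 13.5 and 0 CPM against 299, 214 and 218 CPM (-3.41 ± 0.63, adjusted p = 5.13e-06). Lama2 had no UMI in the members, as above. Eln, elastin of the arterial wall, was at 125, 188 and 191 CPM against 16.1, 39.4 and 10.9 CPM (2.56 ± 0.50, adjusted p = 2.91e-05). Col18a1 (2.47 ± 0.48), Col4a5 (2.78 ± 0.64), Tnc (2.04 ± 0.51), Sparcl1 (1.49 ± 0.36) and Lamb2 (1.34 ± 0.43) were higher, and Col8a1 (-2.87 ± 0.50) and Col4a2 (-1.22 ± 0.38) were lower. Of these, Col4a5 had 20 of its 21 UMIs in the sham members.

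Adhesion genes gave 5 higher and 3 lower of 27 tested (2.19% and 2.32% of all genes). Besides Cdh6, Itga8 and Dmd, the alpha-catenin Ctnna3 (3.36 ± 0.40, adjusted p = 3.44e-14) and the caveolar coat gene Cavin1 (2.46 ± 0.37, adjusted p = 3.87e-09) were higher. Cavin1 was at 2575, 948 and 3059 CPM in the members and at 1724 CPM in endothelial nuclei. Itga6, Sgcd and Nrp1 were lower and lost the call with the limits on pericytes (adjusted p = 0.46, 0.32 and 0.10). Itga6 and Nrp1 were at 622 and 1565 CPM in endothelial nuclei and Sgcd at 849 CPM in adipocyte nuclei.

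Of 34 genes of signals between vessel cells tested, 5 were higher and 2 lower (2.19% and 2.32% of all genes), or 8 and 2 with the limits on pericytes. Bmp2, a bone morphogenetic protein, was at 179, 269 and 127 CPM in the members and at 12.5, 8.55 and 0 CPM in pericytes (4.66 ± 0.55, adjusted p = 7.89e-15). Fgf1 (3.20 ± 0.44), Pdgfa (2.52 ± 0.39), Angpt2 (2.44 ± 0.58) and Igfbp5 (2.04 ± 0.37), all secreted factors or their binding proteins, were higher as well. Igfbp5 was at 5490, 4050 and 6308 CPM against 1240, 1178 and 826 CPM and had a UMI in 222 of 273 members. Vegfc, a growth factor of lymphatic vessels, was at 17.9, 6.73 and 0 CPM against 165, 73.6 and 69.2 CPM (-3.42 ± 0.85, adjusted p = 0.0025), with 1 UMI each in the untreated and sham members, and Igf1 was lower by 2.37 ± 0.73 (adjusted p = 0.0289).

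Of 19 genes of neurotrophic and axon guidance signals tested, 2 were higher and 2 lower (2.19% and 2.32% of all genes), or 2 and 3 with the limits on pericytes. Ntrk2, the receptor for brain-derived neurotrophic factor, was at 536, 605 and 255 CPM in the members and 53.7, 73.0 and 80.1 CPM in pericytes (2.76 ± 0.42, adjusted p = 5.41e-09), and at 289 CPM in adipocyte nuclei. Ntn4, a netrin, was higher by 1.72 ± 0.37 (adjusted p = 0.000197). Ngfr, the low-affinity neurotrophin receptor, had 1 UMI in the members, in the untreated library, against 145, 148 and 58.2 CPM in pericytes (-4.85 ± 0.96, adjusted p = 3.41e-05). Clstn2, a calsyntenin, was lower (-4.21 ± 0.99, adjusted p = 0.00114).

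Stress and activity genes were examined because tissue digestion can raise them. Of 15 immediate early genes tested, Ctgf (4.69 ± 0.65) and Fosl2 (1.34 ± 0.43) were higher (2.19% of all genes), and 4 were with the limits on pericytes. Of 12 heat shock genes, Cryab, a small chaperone of muscle, was higher, at 161, 101 and 191 CPM against 5.37, 5.70 and 10.9 CPM (4.18 ± 0.62, adjusted p = 3.84e-09). The inducible chaperone Hspa1a was at 340, 1325 and 510 CPM in the members and 355, 804 and 630 CPM in pericytes (0.05 ± 0.38, adjusted p = 0.985).

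The conditions were compared within smooth muscle nuclei without a test, as each is 1 library. A gene was counted when its CPM in the denervated members differed by at least 2-fold from both the untreated and the sham members and both exact 95% intervals left out 0 on the log2 scale. The intervals cover counting error only, not differences between animals, and the denervated values rest on 23 nuclei. Of 2641 genes with at least 20 UMIs, 65 were higher (2.46%) and 13 lower (0.492%) in denervated BAT, with medians over all genes of -0.17 against untreated and -0.18 against sham. These ratios were scaled by total UMIs and not by edgeR's TMM factors. Those were 0.970, 0.893 and 1.48 for the untreated, sham and denervated member sums, and they would lower every denervated level against both controls. The counts of higher and lower genes under that scaling were not made. The minimum counted the UMIs of all 3 libraries, so 20 of the 65 higher genes passed it only through their denervated UMIs. Of 2442 genes with at least 20 UMIs in the untreated and sham members together, 45 were higher (1.84%) and 13 lower (0.532%).

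The 5 highest were Id4, Col1a1, Nkain2, Aqp1 and Upf2, of which all but Aqp1 had under 20 UMIs in the untreated and sham members together. Id4, an inhibitor of helix-loop-helix factors, was at 71.5, 60.5 and 637 CPM in the untreated, sham and denervated members, but 8 of its 10 denervated UMIs came from 1 nucleus. Likewise 13 of 17 UMIs of Aqp1, a water channel of endothelium, and 6 of 8 UMIs of Col1a1, a fibroblast collagen, came from 1 nucleus each. These 3 genes thus rest largely on single nuclei. Nkain2 was at 89.4, 87.5 and 510 CPM, a log2 ratio of 2.51 (0.72 to 4.47) against untreated and 2.54 (1.07 to 3.92) against sham, with at most 2 UMIs a nucleus, and in pericytes these ratios were 0.68 and 0.85. Upf2, of RNA decay, was at 53.6, 74.0 and 382 CPM. When each gene was read without the denervated nucleus that held most of its UMIs, 10 of the 65 genes met the 2-fold and interval limits, namely Cox6a1, Cox6b1, Gpx3, Gpx4, Mustn1, Nkain2, Parva, Rpl41, Rplp1 and Upf2, and the last of these then had under 20 UMIs. This reading can only lower the denervated level, and it took the lower genes from 13 to 47.

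Of those 10, some were also higher in denervated pericytes by their counting intervals. Cox6a1 and Cox6b1, subunits of cytochrome c oxidase, had log2 ratios of 2.01 and 1.83 against untreated in smooth muscle nuclei and 1.48 and 1.46 in pericytes. Rplp1 and Rpl41, ribosomal proteins, had 2.27 and 1.47 against 0.75 and 0.91. In pericytes the intervals of all 4 left out 0, and over the 65 genes 15 were above 0 in pericytes by their intervals against both libraries, as were 234 of all 2641 genes (8.86%). Parva, which links integrins to actin, had 2.61 (1.15 to 4.19) against untreated in smooth muscle nuclei and -0.26 (-0.59 to 0.05) in pericytes. Of the 3 fibroblast markers with enough UMIs, Col1a1 and Col1a2 were counted as higher (2.46% of all genes), and Gsn was not, at 912, 511 and 319 CPM. Col1a1, with 0, 12 and 8 UMIs in untreated, sham and denervated members, reached the minimum only through its denervated UMIs. This bears on the matrix count below as well. The other fibroblast markers had too few UMIs to enter. Of 24 matrix genes 3 were counted, Col6a1 and the same 2 collagens, while Col3a1, Col5a2, Col6a2, Col6a3, Postn and Bgn were not. Prrx1, a regulator of mesenchymal cells, was counted too. Col6a1 and Prrx1 are on no fibroblast list and were chosen after their values were seen. These UMIs came from few denervated nuclei, with Col1a2 in 2, Col1a1 and Prrx1 in 3 each and Col6a1 in 5, and without the top nucleus none of the 4 genes was counted. Their part in the other differences was not tested.

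Of the 13 lower genes, 5 are named by the ranking and the others given here were chosen after their values were seen. Ktn1, Magi2, Smc6, Stag1 and Vti1a had 0 UMIs in the denervated members and 17 to 22 in the untreated ones. With 3 counts in place of 0 in 15693 UMIs, Magi2, a scaffold protein, was 2.06-fold lower than in untreated and 2.15-fold lower than in sham members. The folds of the other 4 were 1.34 to 2.01. This reading leaves out the counting error of the controls. The exact intervals of the Magi2 log2 ratio reached up to -0.62 against untreated and -0.76 against sham. None of the 5 genes is thus shown to be 2-fold lower than both other libraries. Slc1a5, a glutamine transporter, was at 858, 787 and 63.7 CPM, a log2 ratio of -3.75 (-9.08 to -1.20) against untreated, whereas pericytes had 0.64 (0.39 to 0.88). Sgip1 was at 1359, 1574 and 255 CPM and Tgfbr3, a co-receptor for transforming growth factor beta, at 411, 518 and 63.7 CPM, with pericyte ratios of -0.07 and -0.05. Inpp4b, Mbnl2, the contractile anchor Lpp and mt-Cytb were also lower. mt-Cytb was lower in pericytes as well (-1.70 against untreated), and mitochondrial genes took 6.71%, 12.9% and 2.95% of all UMIs in the untreated, sham and denervated libraries.

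**Figure D4:**
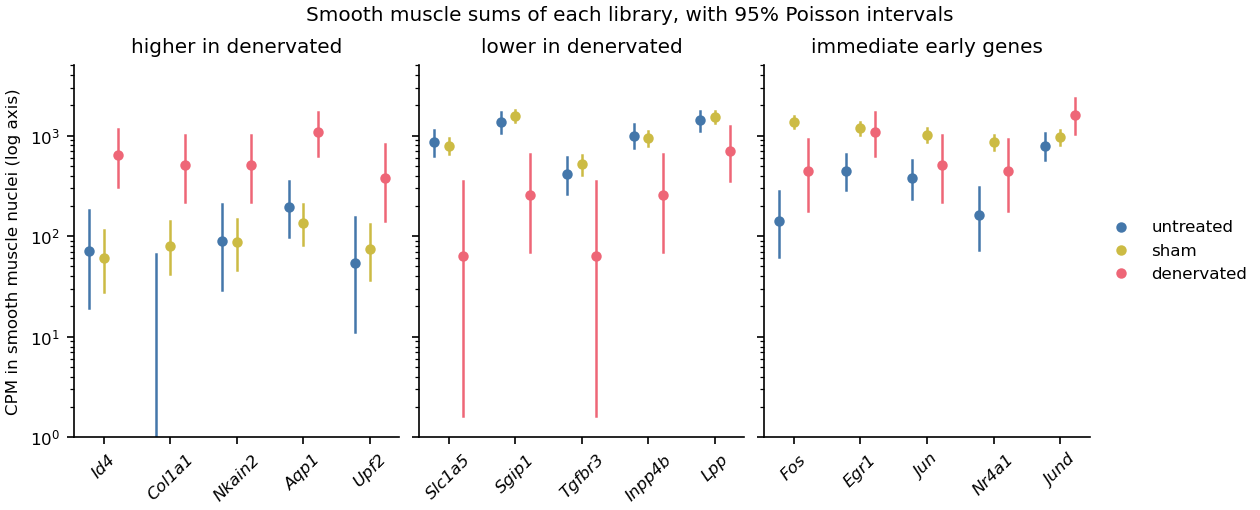
CPM of 15 genes in the smooth muscle nuclei of each library on a log y axis, with exact 95% Poisson intervals; a line without a point marks 0 UMIs and starts at the axis limit. The 5 genes on the left were highest in the 23 denervated nuclei, the 5 in the middle are lower genes with at least 1 UMI there, and the immediate early genes on the right were lowest in untreated nuclei, as for Fos at 143 CPM against 1379 in sham.

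The contractile list held none of the higher and 2 of the lower genes among 24 with enough UMIs (2.46% and 0.492% of all genes), with median log2 ratios of 0.04 against untreated and 0.22 against sham. Mylk was at 3201, 2718 and 3250 CPM in untreated, sham and denervated members, a ratio of 0.02 (-0.46 to 0.48) against untreated. Ppp1r12a had 0.20 (-0.36 to 0.73), Cald1 0.13 (-0.45 to 0.68) and Flna 0.47 (-0.08 to 0.99). The interval of each of these 4 genes includes 0, so no difference was detectable at this depth. Lpp, one of the lower genes, had -1.01 (-2.07 to -0.09). Of the sympathetic receptors only P2rx1 and Npy1r had 20 UMIs. P2rx1 had 0.61 (-1.97 to 2.74) against untreated, and it was below sham, at 191 against 276 CPM, with 3 UMIs in the denervated members. Npy1r had 4.42 (1.38 to 9.94) against untreated and 1.18 (-0.39 to 2.51) against sham, from 1, 25 and 6 UMIs.

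The sham members differed from the untreated ones in activity and stress genes. The immediate early list was at 2790, 9021 and 7201 CPM in untreated, sham and denervated members, and at 2166, 3952 and 3716 CPM in pericytes. In adipocyte nuclei the list was at 1658, 4073 and 2584 CPM, with sham again the highest. Endothelial nuclei had 3944, 4465 and 7031 CPM, with denervated the highest. Fos was at 143, 1379 and 446 CPM, a log2 ratio of sham over untreated of 3.27 (2.26 to 4.50), and Egr1 at 447, 1177 and 1083 CPM (1.40, 0.79 to 2.06). Jun had 1.45 (0.78 to 2.18), while Jund had 0.29 (-0.21 to 0.81). The median of the list in denervated members was 1.42 against untreated and -0.16 against sham, so the denervated members stood above one control and not the other. Among heat shock genes, Hspa1b was at 680, 1608 and 637 CPM, Hspa1a at 340, 1325 and 510 CPM, Hspb1 at 1055, 1608 and 701 CPM and Hsp90aa1 at 1270, 1352 and 828 CPM. The sham members were the highest for each of the 4, but for Hsp90aa1 the log2 ratio to untreated was 0.09 (-0.31 to 0.50). The heat shock list was at 4828, 7722.5 and 4206 CPM in untreated, sham and denervated members and at 3146, 5062.5 and 4506 CPM in pericytes. It was at 4508, 8239 and 5975 CPM in endothelial and 3774, 8304 and 4653 CPM in adipocyte nuclei. The sham library was thus the highest in each class, not in the members alone. Library, condition and handling cannot be told apart here.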

How the data were processed

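Nuclei were captured on BD Rhapsody for whole-transcriptome libraries, and the tables that the authors deposited hold raw UMI counts. Per the file headers, untreated and denervated reads went through a nuclei version of the BD pipeline with GRCm38 and a GENCODE annotation, and for sham reads no header gives this. The submitters' processing notes name Seurat 4.0.6 and GRCh38, a human build. The run name in the denervated header reads nKO, and groups follow the labels. Free RNA was not removed here. The study gated doublets out at the sort. No doublet caller was run here, and members, but not pericytes in the main comparison, were limited by E and A. In the sum of each library and class, genes absent from a table were taken as 0.

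The score genes, members and gene lists were chosen with earlier results of these data known. UMI sums (genes with at least 30 UMIs over 6 sums, 20 score genes left out of the calls) were fitted with edgeR 4.0.16 in R 4.3.3, by the quasi-likelihood test with TMM scaling. The TMM factor of the denervated smooth muscle sum was 1.48, against 0.893 to 0.970 for the others. Named genes were the 12 highest and 12 lowest called in both pericyte definitions with 1 sign in all libraries, up to 4 called and the 2 most abundant members of each list, the 5 highest and 5 lowest between conditions, and others chosen after their values were seen. On simulated data for 9865 genes, 6% of changes of 1 and 74.7% of changes of 2 on the log2 scale were called for this comparison, all with the right sign, so small differences can be missed. The changes were put into 100 and 99 genes with UMIs well above the minimum of 30, at a fixed dispersion of 0.05. The share called among low-count genes was therefore not measured. DESeq2 1.42.0, other filters, score limits and depth matching were alternatives. Intervals are exact Poisson, Clopper-Pearson or conditional binomial at 95% and cover counting error only. Endothelial and adipocyte nuclei had E or A of at least 3 and S and P of 0. Positions are from GENCODE vM21. Python 3.11.15, numpy 2.4.6, scipy 1.17.1, pandas 2.3.3 and matplotlib 3.10.9 were used. Some genes are not reported here.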

Additional observations from a re-analysis of the deposited data

Results flagged for a closer look

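Over the 9946 tested genes, 31 had a ratio of smooth muscle to pericyte nuclei whose counting intervals left out 0 in opposite directions in different libraries. The 7 of them that are reported here are given with log2 ratios; the difference between libraries was not tested, as each condition is 1 library. Prrx1 was at 2.49 in the denervated and -2.0025 in the untreated library, Aqp1 at 2.36 in the denervated and -1.77 in the sham library, and Id4 at 1.93 in the denervated against -2.06 and -1.26 in the untreated and sham libraries. Col6a1 was at 1.08 in the denervated against -2.13 and -0.80 in the untreated and sham libraries. Slc1a5 went the other way, at -3.79 in the denervated and 0.60 in the untreated library. Rgs5 was at 0.27 and 0.77 in the untreated and denervated libraries and -0.83 in the sham library, and mt-Cytb at 0.68, 1.05 and -0.20. The denervated values rest on 23 nuclei.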

How the results depend on the processing

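Both classes of nuclei came from each library, so the comparison was paired by library, and without the library term 235 genes were higher and 274 lower. The number of genes higher in smooth muscle than in pericyte nuclei, 218, went to 39 among members with a P of at most 2, and to 79 to 339 when a library was left out. The number lower, 231, went to 113 with DESeq2 and its size factors, to 23 among members with a P of at most 2, to 146 with pericytes matched in UMIs, and to 22 to 323 when a library was left out. The other fits gave 153 to 326 higher and 156 to 293 lower genes, including pericytes with limits and matched in UMIs (238 and 190), which was added after the data were seen. Of the 65 genes higher in denervated members, 21 were counted at a minimum of 40 UMIs and 10 without each gene's highest denervated nucleus, a reading added after the data were seen that can only lower this count and gives 47 in place of 13 lower genes. With 20 UMIs required in the untreated and sham members together, also added after the data were seen, 45 were higher and 13 lower. Against 1 control alone, 100 (untreated) and 151 (sham) were higher and 36 and 51 lower, and among members with an S of at least 5, 32 genes were higher and 8 lower, whose overlap with the 65 and 13 was not counted. The members numbered 173 at a minimum of 500 detected genes and 159 with an S of at least 5. For the 24 named genes against pericytes, no fold change turned its direction, and the call was kept in 304 and lost in 33 values under alternative settings. The cause of these shifts was not tested, apart from fewer genes, nuclei or libraries where a setting removes them.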
